A study of Mus musculus with 16 samples.

Results

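The genes described here encode the liver's fatty acid oxidation and ketogenesis machinery: 37 listed genes, from the transcriptional regulators of the pathway through carnitine transport and the oxidation enzymes to ketone body enzymes and genes switched on by fasting. They were found by their gene symbol on the array. Where several probe sets carried a symbol, the brightest on average over the 16 arrays stood for the gene. Of the 37, 36 had a probe set of a single symbol, and all 36 passed the filter on low values and stood among the 15908 genes tested. The level of Acsl1, an acyl-CoA synthetase, was not analysed here, though its promoter window was searched for motifs.

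RNA from whole liver of male C57Bl/6 mice was hybridised to 16 Affymetrix whole-transcript arrays, 4 in each of 4 groups. WT mice were untreated or received lipopolysaccharide (LPS), the endotoxin of Gram-negative bacteria, at 1 mg/kg, and S534A mice were likewise untreated or given 1 mg/kg LPS. S534A mice are homozygous for a germline knock-in that turns a serine codon of p65 (Rela, a subunit of the transcription factor NF-kB) into an alanine codon, so every cell type carries the change. The line was derived from targeted embryonic stem cell clones, lost its selection cassette by Flp recombination and was backcrossed to C57Bl6/J before it was bred to homozygosity. The sources used here give no age, no interval from LPS to collection and no hour of collection, and no group is labelled as given vehicle. Animals had chow at all times. The series text gives the untreated S534A group an LPS dose too, and the sample titles, which call it untreated, were followed. The labels do not state that each sample is a different animal; the p-values therefore reflect sample-to-sample spread alone, and that spread may be technical.

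Fatty acids enter liver mitochondria as carnitine esters, are shortened stepwise by beta-oxidation, and in the fasted liver much of the acetyl-CoA becomes ketone bodies that feed other organs. The nuclear receptor PPARA, bound to DNA with a retinoid X receptor and helped by the coactivators encoded by Ppargc1a and Ppargc1b, switches on many of these genes during fasting. Very long and branched chains are first shortened in peroxisomes by a parallel set of enzymes.

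Promoter sequence is shown for the members whose windows held a PPARA-type or NF-kB-type motif, and for the stretch between the starts of Hadha and Hadhb, the divergent genes of the mitochondrial trifunctional protein. RefSeq windows of GRCm38.p6, from 250 bases before to 50 bases after a gene's start, were at hand for 29 of the 37 listed genes. Capitals mark the motif, and each sequence runs 5′ to 3′ on the strand named.
Fabp1, DR1 element, chr6:71199782-71199854, plus strand: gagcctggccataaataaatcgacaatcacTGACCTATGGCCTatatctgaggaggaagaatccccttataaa
Decr2, NF-kB consensus, chr17:26090176-26090245, minus strand: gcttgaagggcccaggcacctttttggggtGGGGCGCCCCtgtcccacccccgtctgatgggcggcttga
Etfa, NF-kB consensus, chr9:55512429-55512493, minus strand: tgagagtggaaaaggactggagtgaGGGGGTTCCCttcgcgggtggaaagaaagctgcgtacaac
Hadha and Hadhb, GC box, chr5:30155003-30155230, plus strand: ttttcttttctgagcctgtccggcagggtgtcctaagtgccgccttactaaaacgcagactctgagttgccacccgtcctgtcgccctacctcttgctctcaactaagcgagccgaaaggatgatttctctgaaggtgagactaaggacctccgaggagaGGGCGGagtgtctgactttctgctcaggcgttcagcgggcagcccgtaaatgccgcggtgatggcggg

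The DR1 element, the classical PPARA and RXR binding element made of a pair of half-sites in the same direction (searched on both strands, like every motif here), was found in 1 of the 29 members with a window, Fabp1, its first base 67 bases upstream of the start. Of all 27025 genes with a window, 0.451% held it. Its half-site AGGTCA was in the windows of Acadm, Acadvl, Cpt1a and Fabp1, 4 of 29, against 18.131% of all genes with a window, and the DR1 element of Fabp1 contains 1 such half-site. A further half-site of Fabp1 began 9 bases upstream. The NF-kB consensus was in 2 of 29, Decr2 at 51 and Etfa at 225 bases upstream, against 9.55% of all genes with a window. The E-box CACGTG was in the window of Fgf21 alone, against 8.093% of all genes with a window. The GC box GGGCGG was in 22 of 29 against 38.202%, and the CCAAT box, searched as CCAAT, in 13 of 29, close to the 41.058% of all genes with a window. The starts of Hadha and Hadhb lie 273 bases apart, and the stretch shown lies between them without reaching either start. It holds 1 GC box, no CCAAT box and none of the other 4 motifs. The window of Hadhb has 3 further GC boxes that the stretch does not hold whole. The first begins 25 bases upstream of the Hadhb start and is cut by the end of the stretch. The others begin 10 and 24 bases past the start. These matches describe letters in a short window, and no binding was measured.

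On the log2 scale, array medians ran from 6.25 to 6.35 in untreated arrays and from 6.37 to 6.42 in LPS arrays. The medians thus differed by treatment without overlap. Precision is limited by having 4 arrays a group. Among the untreated arrays, genes of the circadian clock differed strongly: a clock score (Arntl subtracted from the average of Per1, Per2, Per3, Dbp and Tef, in log2) was -1.70, 3.43, -1.77 and 3.47 in WT arrays 1 to 4 and 3.33, 3.41, -2.55 and 0.96 in S534A arrays 1 to 4. After LPS it lay between -0.70 and 1.63. WT arrays 1 and 3 and S534A array 3 are therefore set apart below, and every call after LPS lost or gained without them is named. Changes that were not called can also shrink, grow or turn without them. Among these are Fabp1 in WT and Cpt1a, Eci2 and Acadl in S534A, for which the value without those arrays is not given. In S534A mice given LPS, array 1 stood apart from the other 3 for several members. Rela itself was 10.03 to 10.34 in untreated WT and 9.88 to 10.13 in untreated S534A arrays. A codon change leaves the transcript in place, so its level does not check the genotype labels. After LPS it was 11.31 to 11.47 in WT and 11.37 to 11.43 in S534A. The arrays titled untreated S534A thus lay below every LPS array for Rela, as the untreated WT arrays did.

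After LPS, all 3 regulators and many of the enzymes were lower, in WT and in S534A livers. In WT, 21 of the 36 members (58.3%) changed at an adjusted p under 0.05 (limma, Benjamini-Hochberg over all 15908 genes), against 44.9% of all genes. Of these, 19 were lower (52.8%, against 29.9% of all genes) and 2 were higher, Vnn1 and Angptl4 (5.56%, against 14.9%). In S534A livers, 17 of 36 changed (47.2%, against 45.4% of all genes), all of them lower (against 31.2% of all genes), and none was higher (against 14.2%). The median change was -0.18 in WT and -0.17 in S534A, where the medians of all genes were -0.05 and -0.03. Because these genes are bright on the array, the shares were also taken over genes above the array median, where 54.3% of 35 members were lower in WT against 38.4% of all genes, and 51.4% were lower in S534A against 40.4%.

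Most of the changes were small, as they were among all genes. In WT, 3 of 36 members (Ppargc1b, Crat and Angptl4) were called and changed at least 2-fold, against 1297 of all 15908 genes. In S534A, 2 of 36 did (Ppara and Ppargc1b), against 1357 of all 15908. In whole liver, fewer cells of a type and less RNA per cell cannot be told apart. The 12 hepatocyte markers tested had a mean log2 level per array of 13.57 to 13.62 in untreated WT and 13.63 to 13.66 in WT given LPS, and 13.57 to 13.62 and 13.59 to 13.66 in S534A.

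**Figure D1:**
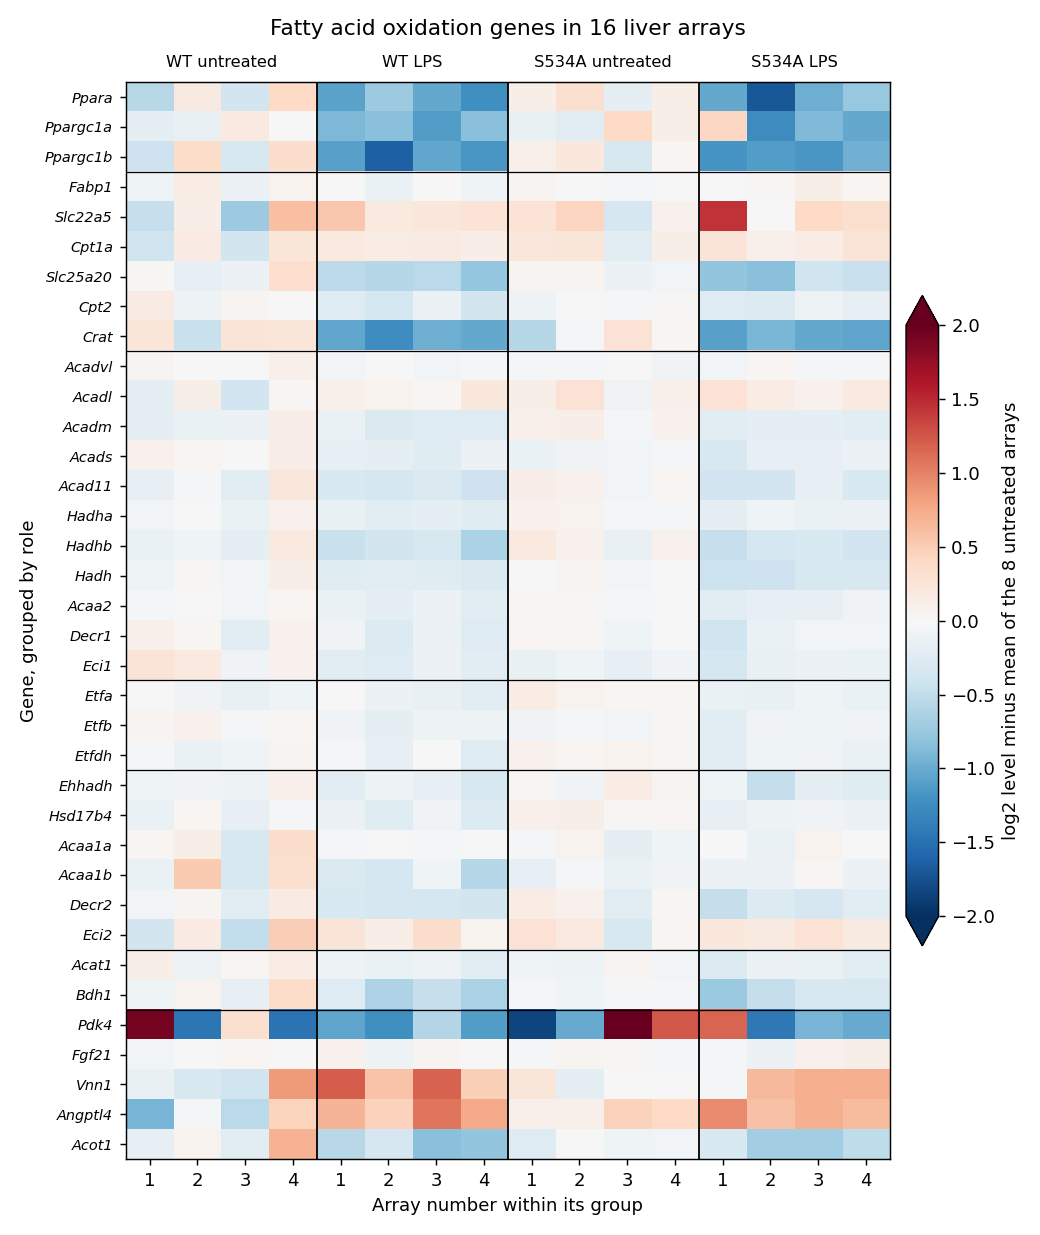
Each row is a gene and each column 1 of the 16 arrays, and the colour is the log2 level minus the mean of the 8 untreated arrays, from blue (lower) to red (higher), with values beyond 2 drawn at the end colour. Ppara, Ppargc1b and Crat are blue in all 8 LPS arrays, Pdk4 differs among arrays of the same group, and array 1 of the S534A LPS group is red for Ppargc1a, Slc22a5 and Pdk4.

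All 3 regulators fell in both genotypes. Ppara, the fatty acid sensor of the pathway, measured 10.99, 11.72, 11.16 and 11.94 in untreated WT arrays and 10.47, 10.82, 10.52 and 10.31 after LPS. In S534A it measured 11.66, 11.86, 11.35 and 11.66 untreated and 10.53, 9.84, 10.56 and 10.79 after LPS. Every LPS array lay below every untreated array of its genotype, and the lowest value of all was S534A LPS array 2. The change in Ppara was -0.92 ± 0.21 (standard error, log2; 1.90-fold lower, adjusted p = 0.00169) in WT and -1.20 ± 0.21 (2.30-fold lower, adjusted p = 0.000162) in S534A. Without the 3 untreated arrays of low clock score it was -1.30 in both.

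Ppargc1b, a coactivator of PPARA and of the estrogen-related receptors, had the largest fall of the members in WT. Untreated WT arrays gave 7.24, 8.03, 7.34 and 8.0, and LPS arrays 6.58, 6.02, 6.62 and 6.50. In S534A, the untreated arrays gave 7.76, 7.87, 7.34 and 7.70, and the LPS arrays 6.48, 6.55, 6.49 and 6.70. No LPS array reached any untreated array in either genotype. The fall was -1.22 ± 0.18 (2.33-fold, adjusted p = 2.66e-05) in WT and -1.11 ± 0.18 (2.16-fold, adjusted p = 6.83e-05) in S534A.

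Ppargc1a, the fasting-induced coactivator, read 8.34, 8.38, 8.71 and 8.51 without treatment in WT and 7.62, 7.69, 7.40 and 7.68 after LPS, with no overlap. In S534A, untreated arrays read 8.36, 8.29, 8.92 and 8.63 and LPS arrays 8.94, 7.27, 7.64 and 7.50, so that LPS array 1 was above all untreated arrays and the other 3 were below them. Its fall was -0.89 ± 0.26 (adjusted p = 0.00932) in WT and -0.72 ± 0.26 (adjusted p = 0.0311) in S534A. Without LPS array 1 the S534A fall was -1.08, and without the 3 untreated arrays of low clock score it was -0.59 and no longer passed (adjusted p = 0.104). The S534A call was also lost without LPS array 2, 3 or 4 or untreated array 3 or 4, each alone (adjusted p from 0.0671 to 0.118). A second Ppargc1a probe set changed by -0.65 in WT and -0.79 in S534A.

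Of the 6 genes of fatty acid binding and the carnitine shuttle, 3 fell in WT (50%, against 29.9% of all genes) and 2 in S534A (33.3%, close to the 31.2% of all genes). Crat, the carnitine acetyltransferase that buffers acetyl-CoA, had the largest fall: 10.05, 9.36, 10.07 and 10.04 in untreated WT against 8.78, 8.56, 8.84 and 8.79 after LPS. The S534A values were 9.23, 9.78, 10.10 and 9.84 untreated and 8.73, 8.89, 8.78 and 8.76 after LPS. Both genotypes were free of overlap, and the LPS arrays lay close together while 1 untreated array in each genotype was low. Crat fell by 1.14 ± 0.17 on the log2 scale in WT (2.20-fold, adjusted p = 2.50e-05) and by 0.95 ± 0.17 in S534A (1.93-fold, adjusted p = 0.000153).

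Slc25a20, which carries acylcarnitines across the inner mitochondrial membrane, read 11.15, 10.96, 11.01 and 11.46 in WT without treatment and 10.61, 10.55, 10.59 and 10.36 after LPS. In S534A it was 11.17, 11.17, 11.01 and 11.06 untreated and 10.33, 10.29, 10.73 and 10.68 after LPS. The groups did not overlap in either genotype, with changes of -0.62 ± 0.12 (adjusted p = 0.000326) and -0.60 ± 0.12 (adjusted p = 0.000435). Cpt2, which frees the acyl-CoA inside the matrix, fell by 0.30 ± 0.07 in WT (adjusted p = 0.00301), and its change of -0.17 ± 0.07 in S534A did not pass (adjusted p = 0.0716). The Cpt2 call in WT was lost without the 3 untreated arrays of low clock score (adjusted p = 0.0655).

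Cpt1a, the gatekeeper enzyme on the outer mitochondrial membrane, did not pass in either genotype. Untreated WT arrays read 11.85, 12.41, 11.88 and 12.49, and the LPS arrays 12.45, 12.40, 12.41 and 12.38. In S534A the untreated arrays read 12.48, 12.49, 12.03 and 12.36 and the LPS arrays 12.51, 12.35, 12.39 and 12.50. The LPS arrays sat together beside the higher untreated arrays, and the low untreated values were those of the 3 arrays of low clock score. The change was 0.26 (95% interval -0.03 to 0.54) in WT and 0.10 (-0.18 to 0.38) in S534A, and -0.04 in WT without those 3 arrays. With the clock score as a covariate the WT change of 0.26 passed (adjusted p = 0.00198), as did 0.42 with array weights (adjusted p = 0.00528) and 0.37 without untreated WT array 4 (adjusted p = 0.0279). Its neighbours in the pathway, the carnitine importer Slc22a5 and the fatty acid binding protein Fabp1, did not pass either: Slc22a5 changed by 0.42 ± 0.29 in WT and 0.43 ± 0.29 in S534A, where LPS array 1 read 9.75 and the other 3 from 8.32 to 8.71. Without the 3 arrays of low clock score the Slc22a5 change turned to -0.07 in WT (adjusted p = 0.872) and was 0.28 in S534A (adjusted p = 0.383). The WT change passed with array weights (0.76, adjusted p = 0.0150), and the S534A change with the clock score as a covariate (0.52, adjusted p = 0.0495). Fabp1 changed by -0.06 (-0.20 to 0.08) and 0.05 (-0.09 to 0.19).

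Among the 11 mitochondrial beta-oxidation genes, 7 fell in WT (63.6%, against 29.9% of all genes) and 5 in S534A (45.5%, against 31.2%), and none rose (against 14.9% and 14.2%). Hadhb, the beta subunit of the trifunctional protein with its thiolase activity, had the largest fall of the group. Its untreated WT arrays read 10.81, 10.85, 10.76 and 11.14 and its LPS arrays 10.50, 10.58, 10.62 and 10.31. S534A arrays read 11.13, 11.04, 10.79 and 11.02 untreated and 10.48, 10.59, 10.64 and 10.56 after LPS. There was no overlap in either genotype, and the falls were -0.39 ± 0.10 (adjusted p = 0.00289) and -0.43 ± 0.10 (adjusted p = 0.00135). A second Hadhb probe set gave -0.39 and -0.43 as well.

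Hadha, the alpha subunit, whose start lies 273 bases from that of Hadhb, fell by 0.17 ± 0.06 in WT (adjusted p = 0.0313) and changed by -0.15 ± 0.06 in S534A (adjusted p = 0.0560), without overlap of the groups in either. The WT call of Hadha was lost without LPS array 3 or 4 or untreated array 2 or 4, each alone (adjusted p from 0.0531 to 0.0961). The S534A change of Hadha passed without the 3 arrays of low clock score (-0.17, adjusted p = 0.0491) and without untreated WT array 4 alone (adjusted p = 0.0409). Hadh, the short-chain hydroxyacyl-CoA dehydrogenase, read 12.90, 13.01, 12.93 and 13.11 in untreated WT and 12.75, 12.76, 12.74 and 12.70 after LPS. In S534A it read 13.00, 13.04, 12.93 and 12.98 untreated and 12.55, 12.57, 12.66 and 12.67 after LPS. The groups were apart in both genotypes, and the S534A LPS arrays were also the lowest of the 16. Its falls were -0.25 ± 0.06 (adjusted p = 0.00266) and -0.37 ± 0.06 (adjusted p = 8.55e-05).

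The acyl-CoA dehydrogenases, which catalyse the first step for different chain lengths, did not move alike. Acad11, a long-chain form, fell by 0.29 ± 0.09 in WT (adjusted p = 0.0107) and by 0.36 ± 0.09 in S534A (adjusted p = 0.00270). Acads, the short-chain form, fell in WT by 0.25 ± 0.06 (adjusted p = 0.00264), with -0.12 ± 0.06 in S534A. Acadm, the medium-chain form, fell in S534A by 0.27 ± 0.07 (adjusted p = 0.00437), with -0.16 ± 0.07 in WT. The long-chain form Acadl changed by 0.22 (0.01 to 0.43) and 0.07 (-0.15 to 0.28), and the very-long-chain form Acadvl by -0.08 (-0.19 to 0.03) and 0.02 (-0.09 to 0.13), and neither passed. Without the 3 arrays of low clock score, the WT change of Acadl was 0.04 (adjusted p = 0.773) and that of Acadm -0.23, which passed (adjusted p = 0.0364). Acadl in WT passed with the clock score as a covariate (0.22, adjusted p = 0.0143), with array weights (0.35, adjusted p = 0.00630) and without untreated WT array 2 (0.30, adjusted p = 0.0237), and Acadm in WT passed without untreated WT array 1 (adjusted p = 0.0490). A call in one genotype and not in the other is no difference between them: the tests of those differences follow below.

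Of the remaining mitochondrial genes, the thiolase Acaa2 fell by 0.16 in each genotype (standard error 0.06, adjusted p = 0.0278 in WT and 0.0284 in S534A), and both calls of Acaa2 were lost when single arrays were left out: LPS array 4 or untreated array 2 or 4 in WT, and LPS array 1, 2 or 3 or untreated array 1, 2 or 4 in S534A (adjusted p from 0.0545 to 0.0845). Without the 3 arrays of low clock score the WT change of Acaa2 was -0.19 and did not pass (adjusted p = 0.0513). Eci1, an enoyl-CoA isomerase for unsaturated chains, fell by 0.32 ± 0.08 in WT (adjusted p = 0.00220) and changed by -0.07 ± 0.08 in S534A. Decr1, the dienoyl-CoA reductase, changed by -0.18 ± 0.09 and -0.16 ± 0.09 and did not pass, though its WT change did without untreated WT array 3 (-0.26, adjusted p = 0.0250). The electron-transfer genes, which pass electrons from the dehydrogenases to the respiratory chain, changed little: Etfb fell by 0.15 ± 0.06 in WT (adjusted p = 0.0401), and Etfa by 0.20 ± 0.06 (adjusted p = 0.0135) and Etfdh by 0.18 ± 0.07 (adjusted p = 0.0372) in S534A. The Etfb call was lost without any of 9 single arrays: untreated WT array 1, 2 or 4, WT LPS array 2, 3 or 4, untreated S534A array 2 or 3, or S534A LPS array 3 (adjusted p from 0.0503 to 0.106). The Etfdh call was lost without S534A LPS array 1 or 4 or any untreated S534A array (adjusted p from 0.0558 to 0.106). Without the 3 arrays of low clock score, Etfb in WT (-0.18, adjusted p = 0.0684) and Etfdh in S534A (-0.18, adjusted p = 0.0863) did not pass either. The Etfa call held in all 27 alternatives. Its window is among those shown with the NF-kB consensus, which 9.55% of all genes with a window held. Whether this motif bears on any change after LPS was not tested.

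Of the 6 peroxisomal genes, 2 fell in WT (33.3%, close to the 29.9% of all genes) and 3 in S534A (50%, against 31.2%). Decr2, the peroxisomal dienoyl-CoA reductase and the other gene with the NF-kB consensus, read 12.24, 12.36, 12.07 and 12.46 in untreated WT arrays and 11.99, 11.96, 11.94 and 11.93 after LPS. S534A gave 12.44, 12.38, 12.08 and 12.31 untreated and 11.81, 12.02, 11.97 and 12.08 after LPS. The groups stood apart, by a narrow margin in S534A, with falls of -0.33 ± 0.09 (adjusted p = 0.00698) and -0.34 ± 0.09 (adjusted p = 0.00590). Ehhadh and Hsd17b4, the bifunctional enzymes of straight and branched chains, fell in S534A by 0.28 ± 0.09 (adjusted p = 0.0121) and 0.18 ± 0.07 (adjusted p = 0.0320), with -0.16 ± 0.09 and -0.11 ± 0.07 in WT. The WT change of Hsd17b4 was -0.19 without the 3 arrays of low clock score (adjusted p = 0.0775). The Ehhadh call was lost without S534A LPS array 2 (adjusted p = 0.0513), and the Hsd17b4 call without S534A LPS array 1, 2 or 4 or untreated array 1 or 2 (adjusted p from 0.0560 to 0.0835).

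The thiolase Acaa1b fell by 0.42 ± 0.14 in WT (adjusted p = 0.0244) although the groups overlapped, and changed by 0.01 ± 0.14 in S534A. Untreated WT arrays ran from 10.35 to 11.19, LPS arrays from 10.10 to 10.58, and leaving out untreated WT array 2, untreated array 4 or LPS array 4 ended the call (adjusted p = 0.0971, 0.0787 and 0.0885). Without the 3 arrays of low clock score the WT fall of Acaa1b was -0.74 (adjusted p = 0.000110). Acaa1a, its close paralog, changed by -0.07 (-0.30 to 0.15) and 0.04 (-0.19 to 0.26), and whether probes of these paralogs share signal was not tested. Without the same 3 arrays Acaa1a changed by -0.26 in WT and passed (adjusted p = 0.0260). Eci2, an isomerase, changed by 0.25 ± 0.17 and 0.16 ± 0.17 and did not pass. Its WT change turned to -0.13 without those 3 arrays (adjusted p = 0.391), and passed as a rise with the clock score as a covariate (0.26, adjusted p = 0.0405), with array weights (0.47, adjusted p = 0.0104) and without untreated WT array 4 (0.44, adjusted p = 0.0257).

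Both ketone body genes fell in WT (against 29.9% of all genes) and 1 of them in S534A (50%, against 31.2%). Bdh1, which interconverts acetoacetate and beta-hydroxybutyrate, measured 11.21, 11.37, 11.13 and 11.65 in untreated WT arrays and 11.03, 10.67, 10.83 and 10.66 after LPS. The S534A arrays measured 11.25, 11.21, 11.26 and 11.26 untreated and 10.54, 10.82, 10.97 and 10.97 after LPS. All LPS arrays were below all untreated arrays of their genotype. Its fall was -0.54 ± 0.12 (1.46-fold, adjusted p = 0.00105) in WT and -0.42 ± 0.12 (1.34-fold, adjusted p = 0.00738) in S534A. Acat1, the acetoacetyl-CoA thiolase, fell by 0.19 ± 0.07 in WT (adjusted p = 0.0313), a call that leaving out LPS array 4, untreated array 1 or untreated array 4 ended (adjusted p between 0.0857 and 0.0954), as did leaving out the 3 arrays of low clock score (adjusted p = 0.146), and changed by -0.14 ± 0.07 in S534A (adjusted p = 0.118).

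The 5 PPARA-responsive and fasting-responsive genes went separate ways. Angptl4, a secreted inhibitor of lipoprotein lipase, rose in WT: untreated arrays read 8.82, 9.71, 9.21 and 10.20, and LPS arrays 10.43, 10.21, 10.82 and 10.51. In S534A, untreated arrays read 9.85, 9.86, 10.22 and 10.14, and LPS arrays 10.69, 10.34, 10.45 and 10.39. LPS arrays were above untreated arrays in both genotypes, and the lowest untreated values were WT arrays 1 and 3. The rise was 1.01 ± 0.22 (2.01-fold, adjusted p = 0.00102) in WT, and the change of 0.45 ± 0.22 in S534A did not pass (adjusted p = 0.103). Without the 3 untreated arrays of low clock score, Angptl4 changed by 0.54 (adjusted p = 0.0178) in WT and by 0.52 (adjusted p = 0.00981) in S534A, so that both passed. The S534A change also passed without untreated WT array 1 or 4.

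Vnn1, a pantetheinase strongly induced through PPARA, was the other gene that rose in WT. It read 9.78, 9.62, 9.54 and 10.78 in untreated WT arrays and 11.15, 10.50, 11.12 and 10.41 after LPS. S534A arrays read 10.17, 9.73, 9.92 and 9.93 untreated and 9.91, 10.59, 10.65 and 10.66 after LPS. Untreated WT array 4 lay among the LPS arrays, and S534A LPS array 1 among the untreated ones. Its rise was 0.87 ± 0.25 (adjusted p = 0.00889) in WT, which the loss of the 3 untreated arrays of low clock score reduced to 0.60 (adjusted p = 0.133). The S534A change of 0.52 ± 0.25 did not pass (adjusted p = 0.105), and without LPS array 1 it was 0.70 and passed (adjusted p = 0.0335), as it did without untreated WT array 4.

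Acot1, a cytosolic acyl-CoA thioesterase with close relatives in the same gene family (cross-hybridisation was not tested), fell. It read 6.76, 6.98, 6.71 and 7.61 in untreated WT and 6.36, 6.59, 6.08 and 6.13 after LPS. In S534A the values were 6.67, 6.91, 6.84 and 6.86 untreated and 6.61, 6.23, 6.22 and 6.41 after LPS. The groups stayed apart, narrowly in S534A, with falls of -0.73 ± 0.17 (adjusted p = 0.00162) and -0.45 ± 0.17 (adjusted p = 0.0335), the latter lost without S534A LPS array 2, 3 or 4 or untreated array 2, 3 or 4 (adjusted p from 0.0537 to 0.0888).

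Pdk4, the kinase that shuts off pyruvate dehydrogenase during fasting, varied more than nearly all other genes in every group but WT given LPS. In that group its standard deviation stood at percentile 91.1 of all genes tested. Untreated WT arrays read 10.16, 6.81, 8.57 and 6.76, and WT LPS arrays 7.18, 7.02, 7.66 and 7.13. Untreated S534A arrays read 6.41, 7.24, 10.53 and 9.49, and S534A LPS arrays 9.41, 6.82, 7.32 and 7.25. High and low arrays occurred in both untreated groups, and 1 of 8 LPS arrays was high. The standard deviation in untreated WT was 1.63 and in untreated S534A 1.92 (n = 4 each), against 0.28 in WT after LPS. The change after LPS was -0.83 (-2.62 to 0.96) and -0.72 (-2.51 to 1.07), so a 2-fold change either way lies within the intervals. Untreated WT arrays 2 and 4, those outside the low clock scores, lay below every WT LPS array. The WT fall of Pdk4 thus rests on untreated arrays 1 and 3. Fgf21, the fasting hormone of the liver, lay between 5.70 and 5.92 in all 16 arrays, near the low-value filter, with changes of 0.02 (-0.12 to 0.16) and 0.01 (-0.13 to 0.15); so near background, a change in a weak transcript may not be detectable.

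**Figure D2:**
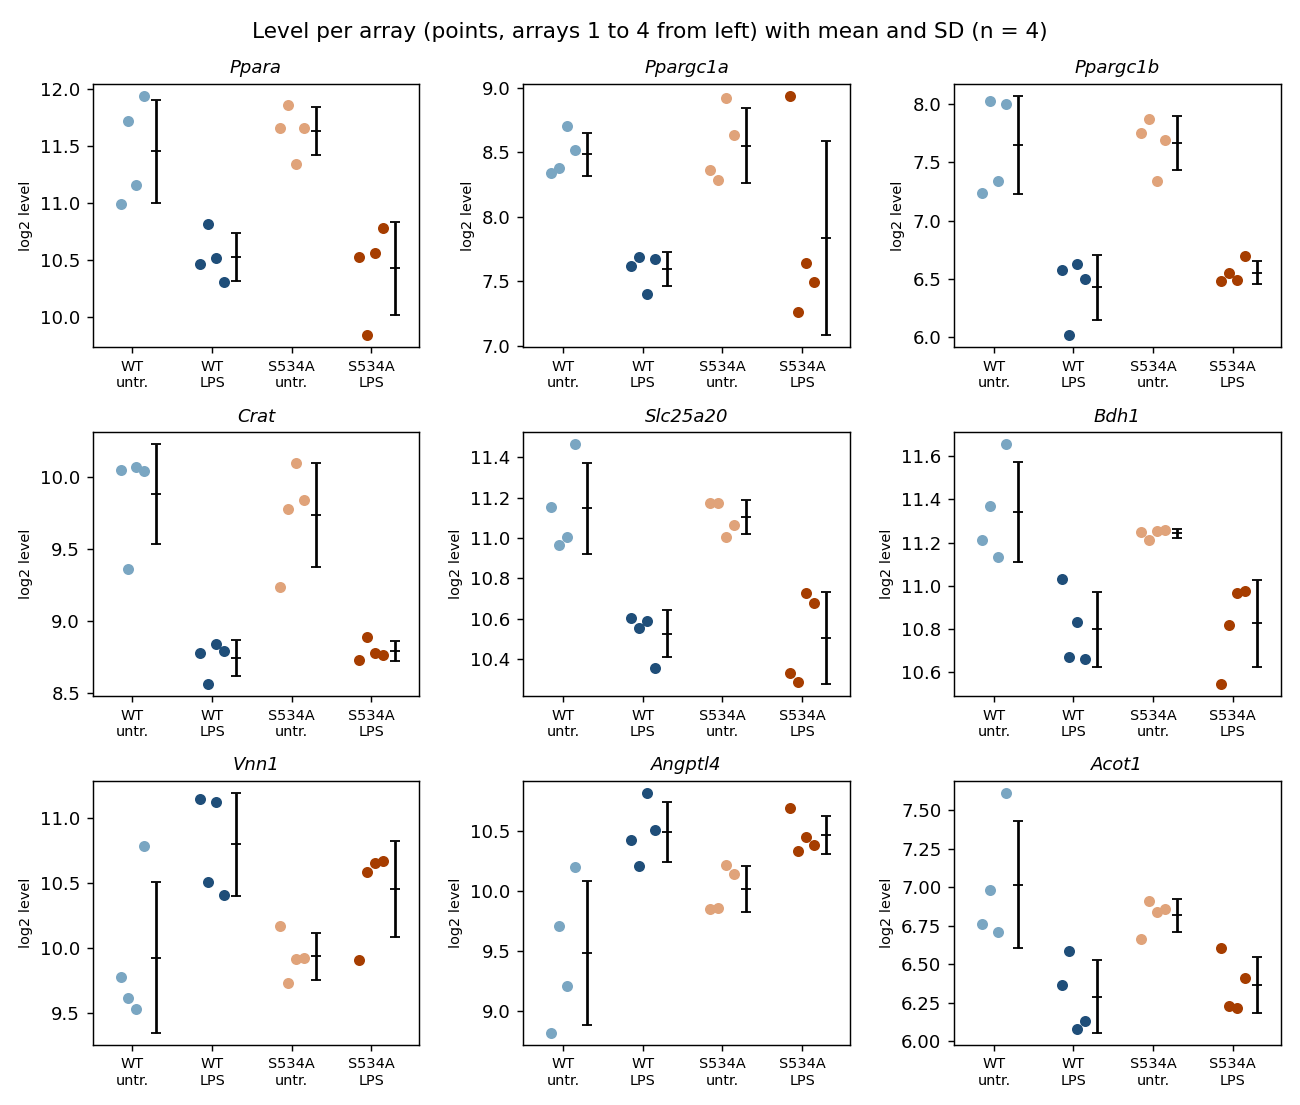
Log2 level of 9 genes in each array (points, arrays 1 to 4 from left to right) by group, with the mean and SD (n = 4) beside them; each panel has its own vertical axis, which does not start at 0. Ppara, Ppargc1b, Crat, Slc25a20 and Bdh1 are lower in all LPS arrays than in all untreated arrays of the genotype, and Angptl4 is higher.

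In all, 12 members (33.3%, against 25.7% of all genes) fell in both genotypes: Ppara, Ppargc1a, Ppargc1b, Slc25a20, Crat, Acad11, Hadhb, Hadh, Acaa2, Decr2, Bdh1 and Acot1. Another 7 fell by call in WT only (against 4.21% of all genes) and 5 in S534A only (against 5.5%), and 10 were called in neither genotype. Groups were free of overlap in the lower direction for 19 members in WT (against 25.6% of all genes) and 19 in S534A (against 31.7%), and in the higher direction for 1 member in each, Angptl4 (against 12.7% and 16.4%). The 2 comparisons have separate untreated controls.

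**Figure D3:**
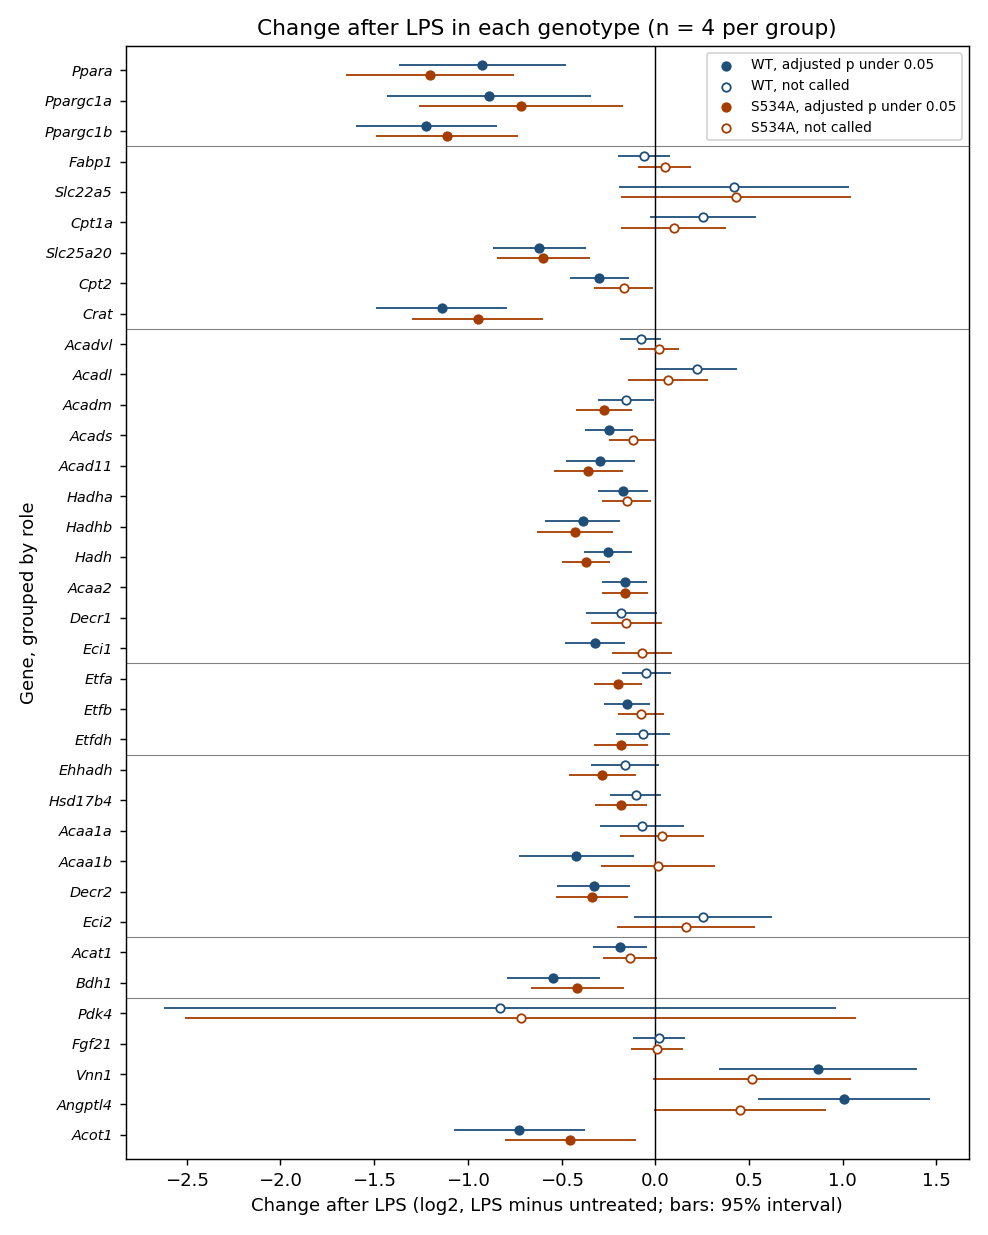
Change after LPS (log2, LPS minus untreated) for each of the 36 genes in WT (dark blue) and S534A (dark orange), with 95% intervals from limma; filled points passed an adjusted p of 0.05. The regulators, Slc25a20, Crat and Acot1 lie to the left, Vnn1 and Angptl4 to the right, Pdk4 has the widest intervals, and the intervals of the genotypes overlap for every gene.

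The S534A change was then compared with WT at the same treatment, to ask whether this phosphorylation site of p65 bears on the pathway's transcripts. After LPS, 0 of 36 members passed (limma, against 0% of all genes), and 0 had an unadjusted p under 0.05 (against 3% of all genes). The differences ran from -0.34 (Vnn1) to 0.45 (Pdk4), with a median of 0.02. The 95% interval of the difference lay within 2-fold either way for 35 of 36 members, the exception being Pdk4, and within 1.41-fold for 29. An exact two-sided permutation test over 70 arrangements gave its smallest possible p, 0.0286, for Fabp1 and Hadh, whose groups did not overlap. Fabp1 read 13.17, 13.05, 13.17 and 13.09 in WT and 13.18, 13.21, 13.29 and 13.22 in S534A after LPS, a difference of 0.10 ± 0.07. Groups that did not overlap made up 0.742% (higher) and 1.29% (lower) of all genes.

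Without treatment, 0 of 36 members differed between genotypes by limma (against 0.0126% of all genes, 0.00629% in each direction), and 5 had an unadjusted p under 0.05 (against 8.88% of all genes), with a smallest adjusted p of 0.348, that of Eci1. Eci1 was 11.24, 11.18, 10.92 and 11.07 in untreated WT and 10.83, 10.91, 10.83 and 10.92 in untreated S534A, a difference of -0.23 ± 0.08, the lowest WT array touching the highest S534A array. Angptl4 was higher by 0.53 ± 0.22 (adjusted p = 0.484), a difference of -0.0036 without the 3 arrays of low clock score. Acadvl and Acads were lower and Etfa higher in S534A with no overlap (against 3.62% and 2.07% of all genes), each by 0.15 or less on the log2 scale, and the exact permutation test gave 0.0286 for each.

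The difference between the LPS effects (S534A minus WT) was called for 0 of 36 members (limma, against 0% of all genes), 2 had an unadjusted p under 0.05 (against 4.82% of all genes), and the smallest adjusted p was 0.951. Those 2 were Acaa1b, with 0.43 ± 0.20, and Eci1, with 0.25 ± 0.11, both falls by call in WT. Angptl4 had the largest difference in size, -0.56 ± 0.31. For 33 of 36 members the 95% interval lay within 2-fold either way, and for 24 within 1.41-fold, while Pdk4, Vnn1 and Angptl4 had intervals that reached past 2-fold. The 7 members that fell by call in WT only and the 5 in S534A only are therefore not shown to differ between genotypes. These comparisons share their arrays with the LPS comparisons.

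Within the untreated livers, several members separated the 3 arrays of low clock score from the other 5. Cpt1a was 11.85, 11.88 and 12.03 in those 3 and 12.36 to 12.49 in the others. Ppara was 10.99, 11.16 and 11.35 against 11.66 to 11.94, and Slc22a5 was 7.84, 7.57 and 7.98 against 8.38 to 8.91. Acadl, with 10.79, 10.60 and 10.92 against 11.01 to 11.28, and Eci2, with 10.49, 10.37 and 10.55 against 10.90 to 11.35, did the same. In all, 12 of 36 members (33.3%, against 11% of all genes) were lower in every one of the 3 arrays than in the other 5: these 5 genes, Ppargc1b, Fabp1, Acad11, Hadhb, Hadh, Acaa2 and Decr2. Crat alone was higher, at 10.05, 10.07 and 10.10 against 9.23 to 10.04 (2.78%, against 10.4% of all genes). Pdk4 read 10.16, 8.57 and 10.53 in those 3 arrays, and 9.49 in S534A array 4, the next lowest in clock score, against 6.41 to 7.24 in the other 4. The 3 arrays come from both genotypes and are not a group of the study, so these values are a description with no test.

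**Figure D4:**
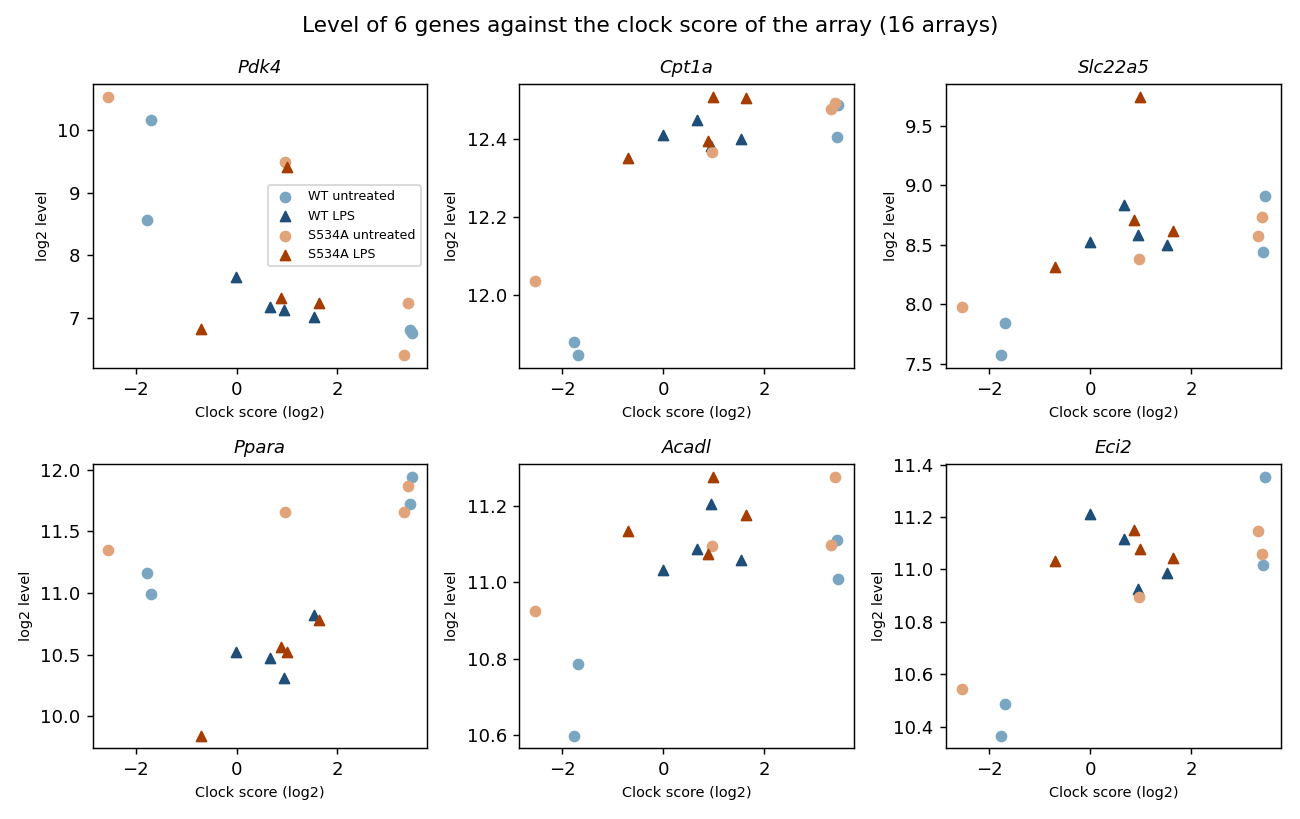
Log2 level of Pdk4, Cpt1a, Slc22a5, Ppara, Acadl and Eci2 against the clock score of the array (log2), with circles for untreated and triangles for LPS arrays, in blue for WT and orange for S534A. The 3 untreated arrays of lowest score are low for Cpt1a, Slc22a5, Acadl and Eci2 and high for Pdk4, and for Ppara they lie between the LPS arrays and the other untreated arrays.

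Genes of the same pathways outside the 37 were also mostly lower after LPS. Of 51 further fatty acid oxidation enzymes tested, 29 fell and 0 rose in WT, and 33 fell and 0 rose in S534A (limma, same background as above), with medians of -0.32 and -0.38. Of all genes, 29.9% fell and 14.9% rose in WT, and 31.2% fell and 14.2% rose in S534A. Among them were the thioesterase Acot4 (-1.68 in WT, -1.98 in S534A), the mitochondrial coenzyme A carrier Slc25a42 (-1.31 and -1.08), the peroxisomal transporter Abcd2 (-1.30 and -1.93) and malonyl-CoA decarboxylase Mlycd (-1.01 and -1.09). Of 10 genes of ketone body synthesis, use and transport, 6 fell in WT, 7 in S534A and 0 rose in either. Aacs, which activates acetoacetate for lipid synthesis, changed by -1.43 and -1.48, and Sirt3, a mitochondrial deacetylase, by -1.03 and -0.99.

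Further PPARA target genes were split. Of 49 tested, 19 fell and 5 rose in WT (against 29.9% and 14.9% of all genes), with a median of -0.32. In S534A 17 fell and 7 rose, shares close to the 31.2% and 14.2% of all genes, with a median of -0.18. G0s2, an inhibitor of the lipase ATGL, fell by 1.98 in WT and 1.56 in S534A, whereas Il1rn, the interleukin receptor antagonist that inflammation also induces, rose by 4.05 and 4.07. Of 48 PPARA partners and upstream regulators, 22 fell and 9 rose in WT, and 23 fell and 5 rose in S534A. Klb, the coreceptor for FGF21, changed by -1.53 and -1.83, the retinoid X receptor Rxra by -0.49 and -0.52, and Rxrg by 1.41 and 1.66. Some genes stand in more than 1 of these lists. No gene of any of them passed in a comparison between genotypes.

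**Figure D5:**
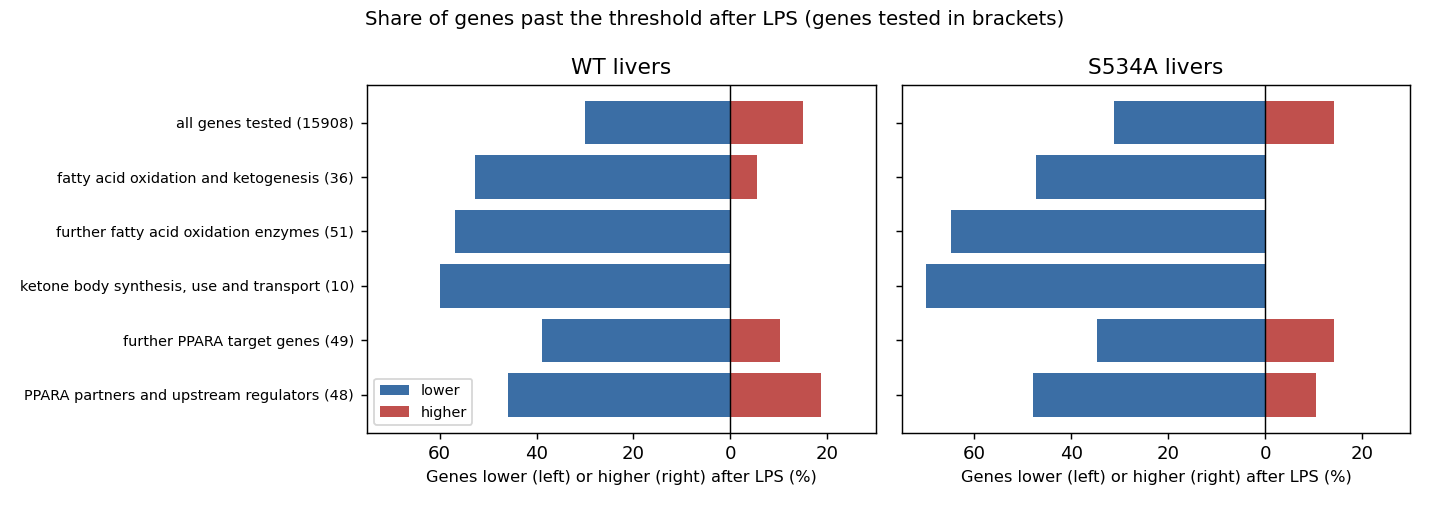
Share of genes past an adjusted p of 0.05 after LPS in WT and S534A livers, lower to the left and higher to the right (%), for all genes tested, the fatty acid oxidation and ketogenesis genes, and 4 lists of related genes, with the number tested in brackets. Bars to the left are longer for each of the lists than for all genes, though only a little for further PPARA target genes in S534A.

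Markers of other liver cells moved with LPS at the same time. All 12 neutrophil markers rose in both genotypes (mean level 6.00 to 6.16 in untreated WT, 7.68 to 8.25 after LPS), 10 of 12 Kupffer cell markers fell (9.28 to 9.72 against 8.17 to 8.56), and 9 of 11 markers of sinusoidal endothelium fell (9.68 to 9.85 against 8.48 to 8.88). Among stellate cell and fibroblast markers 7 of 12 fell in each genotype. Some markers of these types rose: 1 of Kupffer cells and 2 of sinusoidal endothelium in each genotype, and 1 of stellate cells and fibroblasts in S534A. Of all genes, 29.9% fell and 14.9% rose in WT, and 31.2% fell and 14.2% rose in S534A. Of the 12 hepatocyte markers, 0 fell in either genotype, while 3 rose in WT (Apob, Hnf4a and Fgb) and 1 in S534A (Fgb). Of the markers of fat (5), muscle (8) and pancreas (3), 0 passed. The part of these shifts in the members' changes was not tested.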

How the data were processed

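Per the submitters' processing notes, the deposited values were made by RMA, and the authors' table holds log2 intensities. The sources used here name no RMA version or probe set level. The table held 35556 probe sets, of which the platform annotation gave 21789 a single symbol, 1621 several and 12146 none; only the first were used. Genes had to exceed the 30th percentile of the array in at least 4 arrays. limma 3.58.1 (R 4.3.3) fitted 4 group means to 16 arrays (lmFit, contrasts.fit, eBayes; 12 residual degrees of freedom), with 5 two-sided comparisons adjusted by Benjamini-Hochberg at 0.05. The fit was tested on simulated data. Figures used Python 3.11.15 and matplotlib 3.10.9.

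The members, the related lists, the markers and the clock score were chosen with earlier results of these data known, so their directions are not independent evidence. Values per array are given for members past the threshold with the largest changes and for regulators, Pdk4, Fgf21, Angptl4 and Cpt1a; other members by change. From the related lists, genes were taken from the 4 of largest change past the threshold in each list and comparison; Rxra, Apob, Hnf4a and Fgb were added after their values were seen. The alternatives tried were dropping the filter, raising it to the median of each array, averaging probe sets, median centring, a second quantile normalization, array weights, a trended robust eBayes, only the groups compared, a replicate block, the clock score as covariate, leaving out 3 arrays, leaving out each array in turn and, for single members, exact permutation. Batch information was not used. Sequences are RefSeq's, read from windows of GRCm38.p6; 29 of 37 symbols matched.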

Additional observations from a re-analysis of the deposited data

Results flagged for a closer look

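In groups of 4, an array was marked when its gap to the nearest other array, as a share of the group's range, passed Dixon's 95% limit, which chance gives in about 1 in 20 groups. Of 144 groups of the 36 members, 7 were marked. Over all genes tested, the share for which an array was marked ran from 0.484% (untreated WT array 1) to 5.18% (WT LPS array 2). It was 2.62% for S534A LPS array 1. WT LPS array 2 was marked for no member. Array 1 of the S534A LPS group was low for Eci1 (10.64), Etfb (12.51) and Vnn1 (9.91), array 2 of that group was high for Acadvl (10.58), and array 3 was high for Acaa1b (10.69). In untreated WT, array 2 was low for Crat (9.36) and array 4 was high for Ehhadh (11.72).

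Fabp1 was marked because every WT LPS array lay below the untreated WT mean and every S534A LPS array above the untreated S534A mean. In S534A the margin was narrow: the lowest LPS array read 13.183 against an untreated mean of 13.176. That mean includes array 3, of low clock score, at 13.136. The difference between the LPS effects was 0.11 ± 0.09 on the log2 scale, and limma did not call it (adjusted p = 0.951).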

How the results depend on the processing

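All alternatives except exact permutation were run for the counts; the difference of LPS effects was not run on only the groups compared, since it needs all 4. Members called after LPS numbered 16 to 26 in WT and 14 to 23 in S534A over the alternatives that kept all arrays or left out the 3 untreated arrays of low clock score, and 16 to 22 and 12 to 20 when each array was left out in turn. The ends of the first ranges were 44.4% (all genes 39%) and 72.2% (52.4%) in WT, and 38.9% (44.6%) and 63.9% (49.9%) in S534A. Those of the second were 44.4% (41.7%) and 61.1% (42.9%) in WT, and 33.3% (41.7%) and 55.6% (47.4%) in S534A. Of the calls, 14 of 21 in WT and 11 of 17 in S534A held in all 27 alternatives, which leave out exact permutation. The unadjusted exact permutation p was under 0.05 for 19 of the 21 calls in WT, but not for Acaa1b (0.171) and Vnn1 (0.0857). In S534A it was for 16 of 17, but not for Ppargc1a (0.143). Members not called that passed this test were Acadvl in WT and Hadha, Etfb, Acat1 and Angptl4 in S534A. No call changed direction. Between genotypes after LPS and for the difference of LPS effects the count was 0 throughout. Without treatment it was 0 except with array quality weights, where 1 member, Angptl4, passed (0.83, adjusted p = 0.0261) beside 370 of all genes; the cause was not tested. The same weights added rises of Slc22a5, Cpt1a, Acadl and Eci2 in WT.

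Every LPS array had a higher median than every untreated array. With arrays centred on their medians, the all-gene median of the change after LPS shifted by -0.10 in both genotypes. The split of all genes then became 11.6% higher and 40.8% lower in WT and 10.7% and 39.2% in S534A, and of members 2 and 24 in WT and 0 and 23 in S534A.

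Replicate numbers of the titles did not pair the samples (correlations of deviations from -0.49 to 0.59, 7 of 16 pairs over 0.1). With the replicate number as a block, 17 members passed in WT (47.2%, against 43.9% of all genes). In S534A 14 passed (38.9%, below the 44.6% of all genes). The share lower was 41.7% against 29.3% in WT and 38.9% against 30.7% in S534A.

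The number of arrays and the unstated interval after LPS limit what can be read from small changes, and signal over background was not assessed.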
